A study of Mus musculus with 12 samples.

Results

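The genes described here are the matrix metalloproteases (Mmp), the Adamts metalloproteases, the Adamts-like proteins (Adamtsl) and their inhibitors (Timp). They were taken by symbol from the table of normalized counts, and kept where the mean over the 11 libraries was at least 10. Of 47 rows with such a symbol, 40 passed, of 18400 genes tested and 27754 rows in all. The 40 genes were 12 Mmp, 19 Adamts, 5 Adamtsl and all 4 Timp genes. The 7 rows below the minimum were all Mmp genes, namely Mmp7, Mmp8, Mmp13, Mmp20, Mmp21, Mmp25 and Mmp27. Just outside the minimum lay Mmp13 with a mean of 6.73 and Mmp25 with 8.82, while the gene nearest to it on the inside was Timp4 with 15.6.

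RNA was sequenced from the cochlear sensory epithelium of mouse pups on a mixed C57BL/6 and CD1 background, lifted off mesenchyme and neurons with Cell Recovery Solution, with both ears of 1 pup in each library. Treated pups were Sox2-CreER/+; β-catenin-flox(Exon3)/+, in which Cre removes exon 3 of 1 Ctnnb1 allele in Sox2-expressing cells and so stabilizes β-catenin, the effector of canonical Wnt signaling. Untreated pups carried the same β-catenin-flox(Exon3)/+ allele without Cre. All pups of both groups received tamoxifen through the milk of their injected mothers. The P1 groups were dosed at P1 and collected at P4, the P4 groups were dosed at P4 and collected at P7, and the table held 3 libraries of each group except P4 treated, which had 2. A further P4 treated library, replicate 2, was not analysed here. As a model this alters only the cells in which Sox2 drove the Cre, and the dissected tissue also holds cells that it does not reach.

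Matrix metalloproteases are zinc endopeptidases that cut collagens, laminins and surface proteins, and are made as inactive proenzymes. Adamts proteases trim procollagens or cut hyaluronan-binding proteoglycans such as aggrecan and versican, and Adamts-like proteins lack the protease domain and bind fibrillin microfibrils. Timps block the active sites of Mmps, and not all of them act on Adamts proteases. In the cochlea the tectorial membrane, basilar membrane and vessel walls are matrices that such enzymes can remodel while the organ matures.

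Totals ran from 41.2 M to 44.2 M normalized counts per library, and all 40 genes were above 0 in every library. All 10 hair cell and all 14 supporting cell markers were above 0 in every library, which fits the labelled tissue. All 15 mesenchyme, all 13 macrophage and 7 of 8 endothelial markers (Kdr was at 0 in at least 1 library) were also above 0 throughout. Sox2 itself was lower in P1 treated libraries (5493 ± 540, SD, n = 3) than in P1 untreated ones (8778 ± 1206, n = 3; log2 difference -0.67, adjusted p from limma 0.0300). Since Sox2-CreER is a knock-in that lowers Sox2 and only treated pups carried it, the knock-in and the stabilization of β-catenin cannot be told apart in any comparison of treated with untreated libraries. Ctnnb1 had 19820 to 25308 in P1 untreated, 24107 to 25048 in P1 treated, 25724 to 30429 in P4 untreated and 28951 and 31167 in P4 treated libraries, values per gene that do not resolve the removed exon 3. The library P1 treated replicate 1 lay nearer to the untreated libraries than the other 2 for many of the genes below, so results at P1 are given with and without it. It was picked from these same values, so larger differences without it follow from the choice and are no separate support. The level of Xist, expressed from the inactive X chromosome, was 13 to 26 in P1 treated and 32 to 39 in P4 untreated libraries, 3268 and 4180 in the P4 treated ones, and 16, 3030 and 2794 in the P1 untreated ones. At P4, Xist level and treatment therefore cannot be told apart, and neither can Xist level and age in the treated libraries. At P1, Xist level and treatment are confounded in part, since only P1 untreated replicate 1 among the untreated libraries was as low as the treated ones. Xist level and age are also confounded in part in the untreated libraries. Of those at P1 only replicate 1 was low, as all were at P4.

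Upstream sequences are shown for 3 Adamts genes on which the results turn: Adamts17, which was higher with treatment, Adamts3, which rose with age, and Adamts14, which moved in opposite directions in the 2 comparisons. The treatment differences of Adamts17 and Adamts14 did not pass an adjusted p of 0.05 from limma at either age. Each is the stretch directly before the annotated gene, from RefSeq on GRCm38.p6, printed 5′ to 3′ on the gene's own strand. Capitals mark CCAAT boxes (CCAAT) and GC boxes (GGGCGG), each searched on both strands. Overlapping GC boxes form 1 run of capitals.
Adamts17, chr7:66839485-66839734, plus strand: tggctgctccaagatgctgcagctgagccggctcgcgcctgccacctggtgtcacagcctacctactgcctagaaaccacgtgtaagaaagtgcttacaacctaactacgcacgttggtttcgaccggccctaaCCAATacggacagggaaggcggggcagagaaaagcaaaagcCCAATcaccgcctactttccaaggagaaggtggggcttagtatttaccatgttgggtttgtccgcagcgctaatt
Adamts3, chr5:89883335-89883584, minus strand: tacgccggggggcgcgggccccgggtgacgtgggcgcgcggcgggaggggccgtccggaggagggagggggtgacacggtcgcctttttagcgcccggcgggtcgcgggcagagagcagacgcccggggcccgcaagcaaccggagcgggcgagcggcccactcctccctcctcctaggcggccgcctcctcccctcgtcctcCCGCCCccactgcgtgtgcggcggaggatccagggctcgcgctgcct
Adamts14, chr10:61273439-61273669, minus strand: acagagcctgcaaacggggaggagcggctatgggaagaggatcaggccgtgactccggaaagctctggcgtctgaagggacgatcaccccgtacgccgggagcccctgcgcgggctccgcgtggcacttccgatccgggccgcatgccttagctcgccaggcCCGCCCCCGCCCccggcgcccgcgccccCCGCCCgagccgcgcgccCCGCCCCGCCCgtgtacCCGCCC

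The Adamts17 stretch held 2 CCAAT boxes and no GC box. The Adamts3 stretch held 1 GC box, and that of Adamts14, 231 bases long, held 6. Over the 250 bases before each RefSeq start, 25 of the 40 genes had 27 entries, and 19 of these (70.4%) held a GC box against 32.7% of 32851 entries of all genes. The CCAAT box was in 5 of the 27 (18.5%) against 33.8% of all, and TATAAA in 2 (7.41%) against 12.4%. The AP-1 motif TGANTCA was in 1 (Mmp12) against 6.75%, and the TCF/LEF motif CTTTGAT, which binds the partners of β-catenin, was in 0 against 3.21%. The entries of all genes were not held to a mean of at least 10, as those of the 40 were, so these shares compare unlike sets. These letters say nothing of whether a factor binds.

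Per kilobase of annotated exon, the scale on which genes can be compared, the inhibitor Timp2 had the highest level (5269 normalized counts per kb, mean of all libraries). It was followed by the gelatinase Mmp2 (4594), the membrane-bound Mmp14, which activates pro-Mmp2 together with Timp2 (3863), the procollagen N-proteinase Adamts2 (2032) and Timp3, the matrix-bound inhibitor (1155). Next came Mmp11 (902), Adamts17 (655), Mmp15 (424), Mmp24 (390), Adamts14 (311), Adamts15 (303) and Adamts1 (250). The lowest was Timp4 (2.65). Neighbours in this order were often not separated. Mmp2 and Timp2 overlapped over libraries in the plot of levels per kb, as did Adamts14 and Adamts15, whereas Mmp14 and Adamts2 did not.

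**Figure D1:**
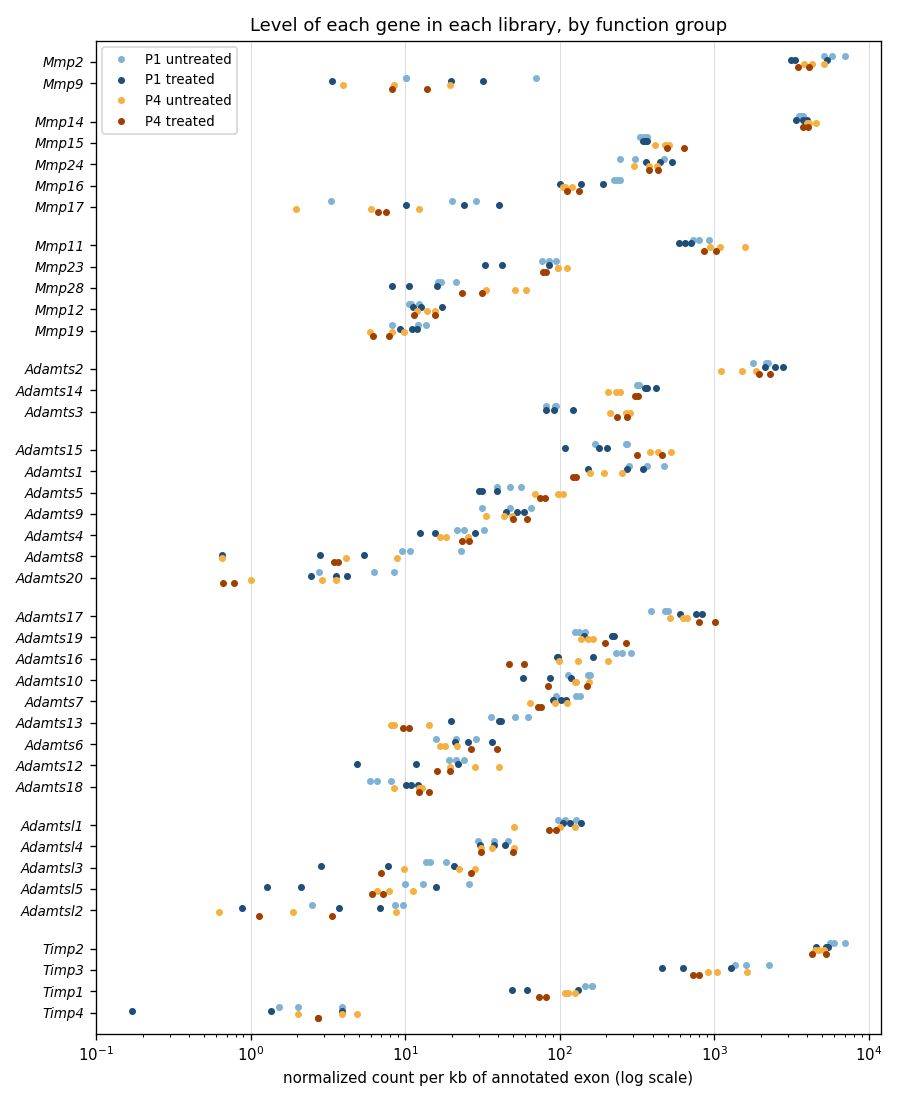
Normalized count per kb of annotated exon (log axis) for each of the 40 genes in each library, coloured by group and arranged by function group. Timp2, Mmp2 and Mmp14 sit furthest right, and Timp4 has the lowest mean level, 2.65 per kb.

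The first comparison asked how these genes differed between Sox2-CreER pups with stabilized β-catenin and Cre-negative pups after dosing at P1. No member was called, that is, passed an adjusted p of 0.05 together with a minimum fold change, where limma called 0.353% of all genes. At an unadjusted p under 0.05, 15 members passed, 4 higher and 11 lower with treatment. These are 10% and 27.5% of the 40, against 5.18% of all genes higher and 6.99% lower. Libraries of the groups did not overlap for 11 members, against 15.3% of all genes. The median log2 difference of the 40 was -0.52, and that of all genes was 0.00.

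Adamts17 (ENSMUSG00000058145, mm10 chr7:66839735-67153171), a secreted Adamts linked to fibrillin matrix, had 3894, 3029 and 3744 normalized counts in P1 untreated libraries and 4670, 5966 and 6509 in P1 treated ones. The groups did not overlap. The log2 difference was 0.68 (SE 0.155, adjusted p from limma 0.120), and without P1 treated replicate 1 it was 0.82 (adjusted p 0.0324). Adamts16 (ENSMUSG00000049538, chr13:70727802-70841811), an Adamts reported to cleave fibronectin, had 1736, 1987 and 1588 in P1 untreated and 1123, 656 and 665 in P1 treated libraries. Every treated library lay below every untreated one. Its log2 difference was -1.16 (SE 0.274, adjusted p 0.129), and -1.41 without P1 treated replicate 1 (adjusted p 0.0326).

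Mmp16 (ENSMUSG00000028226, chr4:17852893-18119145), a membrane-type enzyme, had 2124, 2038 and 1936 in P1 untreated and 1662, 1198 and 867 in P1 treated libraries, again without overlap. The log2 difference was -0.76 (SE 0.192, adjusted p from limma 0.15), and -0.99 without P1 treated replicate 1 (adjusted p 0.0155). Timp3 (ENSMUSG00000020044, chr10:86300372-86349506) had 11108, 18325 and 13023 untreated and 10478, 5126 and 3765 treated. Here the highest treated library came close to the lowest untreated one. The log2 difference was -1.24 (SE 0.345, adjusted p 0.184), and -1.66 without P1 treated replicate 1 (adjusted p 0.0193). Timp3 lies within Syn3 and shares 21.3% of its exon bases with it, and how reads from the shared bases were assigned was not stated. With log2 Xist as a covariate, the P1 log2 differences of Adamts17, Adamts16, Mmp16 and Timp3 were 0.53, -1.09, -0.80 and -0.90. Their adjusted p from limma were then 0.850, 0.811, 0.768 and 0.926.

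The other inhibitors also lay lower. Timp1, an X-linked inhibitor, had 144, 143 and 129 in P1 untreated and 117, 55 and 44 in P1 treated libraries (log2 difference -1.06, SE 0.323, adjusted p 0.220). Timp2 had 23426, 21830 and 27502 untreated and 21290, 20512 and 17707 treated (-0.29, SE 0.114, adjusted p 0.345). Neither pair of groups overlapped. Timp4 had 9, 23 and 12 untreated against 23, 8 and 1 treated, a spread too wide to separate the groups (-0.95, SE 0.793, adjusted p 0.723).

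Among the abundant proteases, Mmp2 had 17411, 19415 and 23585 in P1 untreated and 18018, 10544 and 11188 in P1 treated libraries. The groups overlapped through P1 treated replicate 1. The log2 difference was -0.64 (SE 0.199, adjusted p from limma 0.231). Mmp14 was nearly level, at 21688 ± 557 untreated and 22225 ± 1805 treated (SD, n = 3 each; log2 difference 0.03, adjusted p 0.932). Mmp11, a stromelysin, was at 2275 ± 285 and 1808 ± 152 (-0.33, adjusted p 0.513), and Adamts2 at 19244 ± 2223 and 23084 ± 2969 (0.26, adjusted p 0.632). Adamtsl1, the most abundant of the Adamts-like genes, was at 1422 ± 185 and 1532 ± 220 (0.11, adjusted p 0.936).

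By function group, all 4 Timps and both gelatinases had negative log2 differences at P1, with medians of -1.01 and -0.60, and so did 6 of 7 proteoglycan-cleaving Adamts (median -0.55). All 3 procollagen N-proteinases were positive (median 0.25), and 4 of 5 membrane-type Mmps were (median 0.03). None of these members was called. Without P1 treated replicate 1, 9 members were called, where limma called 2.02% of all genes. Adamts17 and Adamts19 were higher, and Adamts16, Adamtsl5, Mmp2, Mmp16, Mmp23, Timp1 and Timp3 were lower. Leaving out any other 1 library of the P1 groups called 0 members.

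Marker levels of other cell types moved in the same samples. The summed endothelial markers were 6729 to 9187 in P1 untreated libraries and 2273 to 4253 in P1 treated ones, and the macrophage markers 4647 to 6088 and 2097 to 4220, without overlap in either. Of 8 endothelial markers, though, only 2 were lower and 1 was higher at an unadjusted p under 0.05 (median log2 difference -0.11), and 0 were called. Of 13 macrophage markers, 10 were lower at that level, and 0 were called. Of 15 mesenchyme markers, 8 were lower and 1 higher at that level (median log2 difference -1.08), while their summed level, 179685 to 219460 untreated and 145209 to 231579 treated, overlapped. Some other values lay higher. The bone and cartilage sum was 456517 to 539116 untreated and 555003 to 632701 treated, without overlap. Its single markers did not follow the sum, since 2 of the 8 tested fell with an unadjusted p below 0.05 and 0 rose. Of 14 supporting cell markers, 3 were called higher and 1, Sox2 itself, was called lower. The list also holds Lgr5 and Jag1, which the paper reports as altered by the stabilization of β-catenin. The summed level of the 14, 485487 to 558017 untreated and 533056 to 571232 treated, overlapped. Of the mesenchyme markers, 1 was called higher and 0 were called lower. P1 treated replicate 1 had the highest summed level of the endothelial, macrophage and mesenchyme lists among the treated libraries, and the highest Timp3, Mmp2 and Mmp16. In bulk tissue, fewer cells of a type and less RNA per cell cannot be told apart, and the part of these cells in the results above was not tested.

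**Figure D2:**
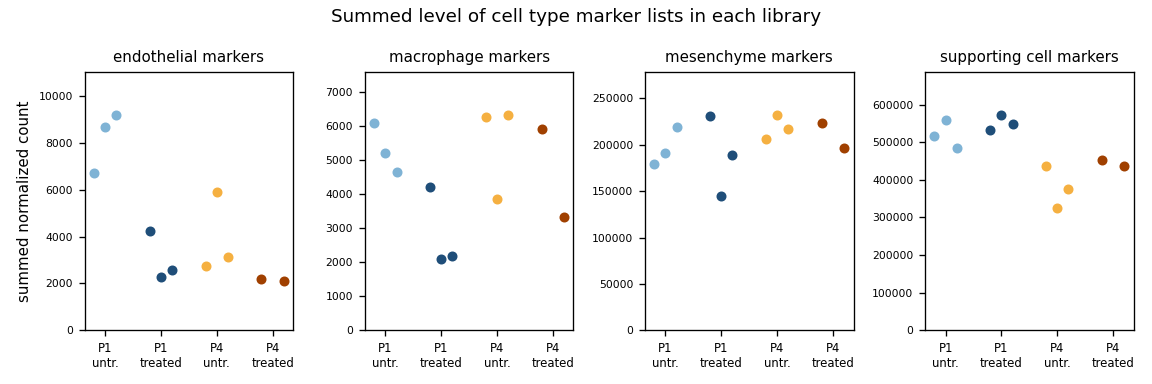
Summed normalized count of the endothelial, macrophage, mesenchyme and supporting cell marker lists, 1 point per library, by group. Endothelial and macrophage sums of the P1 treated libraries lie below those of the P1 untreated libraries, whereas mesenchyme and supporting cell sums of these groups overlap.

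At P4 the same comparison again called no member, where limma called 0.0543% of all genes. At an unadjusted p under 0.05, 6 members were higher (15% of the 40, against 6.26% of all genes) and 3 lower (7.5%, against 5.38%). Groups did not overlap for 13 members (32.5%), close to the 33.5% of all genes, a share raised for every gene by setting only 2 treated libraries against 3. The median log2 difference of the 40 was -0.08.

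Adamts16 had 1417, 678 and 903 in P4 untreated and 402 and 321 in P4 treated libraries. Both treated libraries lay below all untreated ones (log2 difference -1.41, SE 0.306, adjusted p from limma 0.222). Adamts14, a procollagen N-proteinase (ENSMUSG00000059901, chr10:61197112-61273438), had 1272, 1072 and 1205 untreated and 1593 and 1662 treated (0.46, SE 0.103, adjusted p 0.224). Adamts17 had 5157, 4035 and 4884 untreated and 6175 and 7840 treated (0.58, SE 0.173, adjusted p 0.285). Adamts19, a close relative of Adamts17, had 2133, 1923 and 2325 untreated and 3799 and 2753 treated (0.61, SE 0.199, adjusted p 0.311). The last 3 were higher in both treated libraries than in any untreated one.

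No Timp was called at P4, and none passed in the interaction of treatment and age given below (unadjusted p 0.113 to 0.602). Timp1 had 111, 101 and 96 in P4 untreated and 73 and 65 in P4 treated libraries (log2 difference -0.57, SE 0.361, adjusted p 0.567), and Timp3 had 7408, 13274 and 8556 against 6473 and 5913 (-0.61, SE 0.386, adjusted p 0.565). Neither overlapped. Timp2, at 18633 ± 1269 (n = 3) and 18816 ± 2765 (n = 2), did (0.01, adjusted p 0.989), as did Timp4 (29, 23 and 12 against 16 and 16). Summed endothelial markers were 2742 to 5915 untreated and 2106 and 2171 treated, and macrophage markers, 3851 to 6323 and 3343 to 5923, overlapped. At an unadjusted p under 0.05, 4 of 15 mesenchyme markers lay lower and 1 lay higher (median log2 difference -0.88). Supporting cell markers summed to 323764 to 435471 untreated and 435546 to 452161 treated, so that the groups all but touched. Of these markers, 5 of 14 were higher and 1 lower at that level. The part of these cells in the P4 and averaged differences was not tested.

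Of the most abundant proteases, Mmp2, Mmp14 and Mmp11 overlapped between the groups at P4, whereas Adamts2 did not. Mmp2 had 12865, 14494 and 17328 in P4 untreated and 11713 and 13793 in P4 treated libraries (log2 difference -0.22, SE 0.223, adjusted p 0.743). Mmp14 was at 25079 ± 1832 (n = 3) and 23147 ± 1247 (n = 2), a log2 difference of -0.11 (adjusted p 0.648), and Mmp11 at 3355 ± 929 and 2626 ± 354 (-0.33, adjusted p 0.547). Adamts2 had 17534, 10355 and 14069 untreated and 21459 and 18239 treated (0.53, SE 0.198, adjusted p 0.349).

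**Figure D3:**
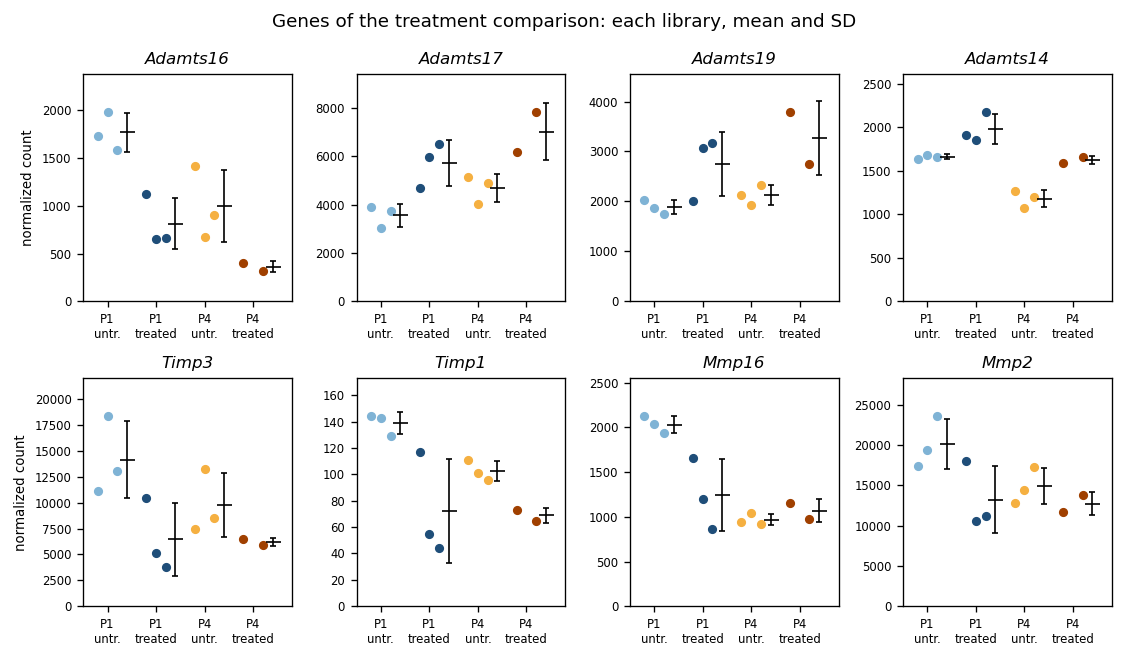
Normalized counts of 8 genes in each library (points) with the group mean and SD (bar), on axes that start at 0. Adamts16 lies lower and Adamts17 and Adamts14 higher in treated than in untreated libraries at both ages, without overlap.

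Treated and untreated libraries failed to overlap at both ages, in the same direction, for 6 members: Adamts14 and Adamts17 were higher, and Adamts16, Mmp28, Timp1 and Timp3 lower. That is 15% of the 40, against 5.07% of all genes. Averaged over the ages, a contrast added after the data had been seen, 2 members were called, where 0.674% of all genes were. Adamts16 fell 2.43-fold (log2 difference -1.28, SE 0.205, adjusted p from limma 0.0254), and Adamts17 rose 1.55-fold (0.63, SE 0.116, adjusted p 0.0425). Adamts14 (0.36, SE 0.0693, adjusted p 0.0509) and Adamts19 (0.56, SE 0.134, adjusted p 0.0811) lay just past the threshold. At an unadjusted p under 0.05, 6 members were higher and 12 lower, against 8.28% and 8.52% of all genes. Both calls rested on few libraries. That of Adamts17 was lost on leaving out any library but P1 treated replicate 1, with adjusted p up to 0.185. That of Adamts16 was lost without P1 treated replicate 3, any 1 P1 untreated library or either P4 treated library, with adjusted p from 0.0528 to 0.111.

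**Figure D4:**
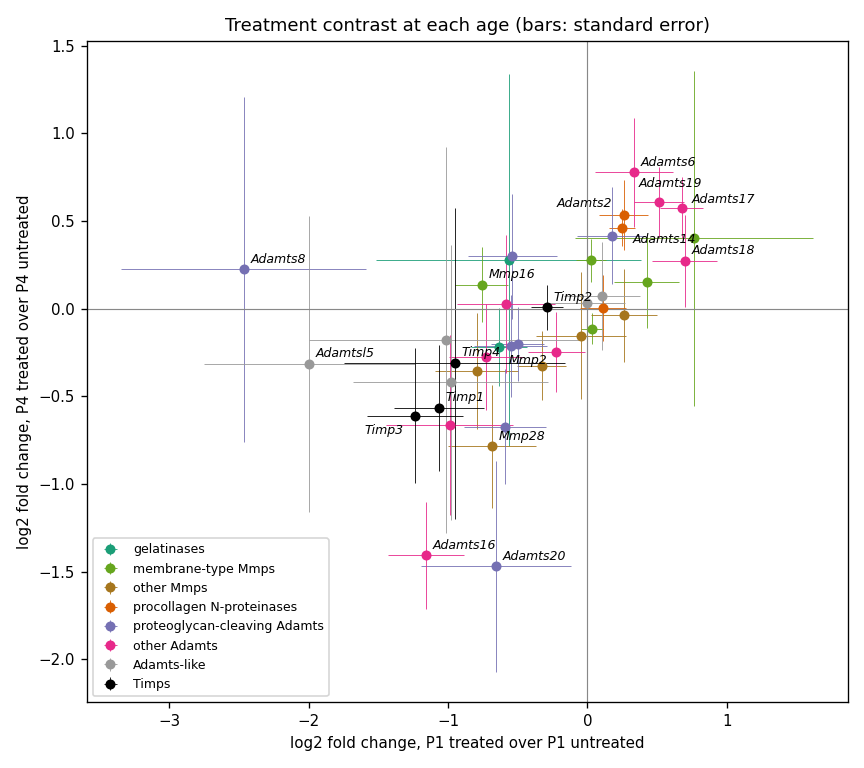
Log2 fold change of treated over untreated libraries at P1 (horizontal) and at P4 (vertical) for the 40 genes, coloured by function group, with bars of 1 standard error. Adamts16 lies at -1.16 and -1.41, Adamts17 at 0.68 and 0.58, and Mmp16 at -0.76 and 0.14.

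Among the remaining proteases, several separated at 1 age only. Adamts18, a relative of Adamts16, had 67, 82 and 60 in P1 untreated and 112, 124 and 103 in P1 treated libraries, without overlap (log2 difference 0.70, SE 0.233, adjusted p from limma 0.261). Adamts6 had 131, 169 and 142 in P4 untreated and 208 and 305 in P4 treated libraries (0.78, SE 0.312, adjusted p 0.383), and Adamts20, which cuts versican, had 26, 32 and 9 against 6 and 7 (-1.47, SE 0.604, adjusted p 0.390). These groups did not overlap either. By contrast Adamts10 (937, 1261 and 1290 in P1 untreated, 979, 716 and 481 in P1 treated libraries), Mmp23 (222, 179 and 201 against 199, 99 and 77) and Adamtsl5 (122, 47 and 62 against 75, 10 and 6) overlapped, in each case through P1 treated replicate 1. The log2 differences of these 3 were -0.72, -0.79 and -2.00, with adjusted p of 0.317, 0.317 and 0.320.

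At an unadjusted p of 0.05, 13 of the 40 genes passed in none of the 6 contrasts. They were Mmp9, Mmp12, Mmp17, Mmp19, Mmp24, Adamts4, Adamts7, Adamts9, Timp4 and the Adamts-like genes Adamtsl1, Adamtsl2, Adamtsl3 and Adamtsl4. Some of these varied widely within groups. Mmp9, a gelatinase of leukocytes and bone, had 248, 36 and 36 in P1 untreated libraries, and Mmp17 had 22, 134 and 191. Adamtsl3 had 112, 143 and 106 in P1 untreated and 60, 160 and 22 in P1 treated libraries. Others were steady, such as Adamtsl4, which binds fibrillin, at 159 ± 35.0 in P1 untreated and 158 ± 28.0 in P1 treated libraries.

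The interaction of treatment and age asked whether the response differed between the ages. No member was called, and limma called 0% of all genes. At an unadjusted p under 0.05, 1 member passed, against 5.8% of all genes. It was Mmp16, whose log2 difference with treatment was -0.76 at P1 and 0.14 at P4 (interaction 0.90, SE 0.288, adjusted p 0.820). Next were the proteoglycan-cleaving Adamts8 (interaction 2.69, SE 1.32, adjusted p 0.856), the aggrecanase Adamts4 (0.84, SE 0.477, adjusted p 0.863) and Timp2 (0.30, SE 0.171, adjusted p 0.863). The Adamts8 value comes from low counts, 50, 106 and 44 in P1 untreated and 25, 3 and 13 in P1 treated libraries. For all 4 Timps the interaction was positive (median 0.56), but no Timp passed.

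More members were called between the ages than between treated and untreated libraries. In untreated libraries, 5 members rose from P1 to P4 and 5 fell (12.5% of the 40 each way), close to the 9.38% and 10.5% of all genes. Groups did not overlap for 19 members (47.5%), against 41.3% of all genes. The median log2 difference of the 40 was -0.27, against -0.02 for all genes. Summed endothelial markers were 6729 to 9187 in P1 and 2742 to 5915 in P4 untreated libraries. Supporting cell markers summed to 485487 to 558017 and 323764 to 435471, though 5 of 14 were called higher and 2 lower. The hair cell sum was 21686 to 35893 at P1 and 44321 to 51426 at P4. At an unadjusted p under 0.05, 5 of 15 mesenchyme markers were lower and 2 higher. The part of these cells in the age differences was not tested.

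The procollagen N-proteinases moved apart. Adamts3 (ENSMUSG00000043635, chr5:89677087-89883334), which trims fibrillar procollagen and activates Vegfc, had 517, 444 and 510 in P1 untreated and 1457, 1153 and 1545 in P4 untreated libraries. It rose 2.81-fold, with all P4 libraries far above all P1 ones (log2 difference 1.49, SE 0.168, adjusted p from limma 3.95e-04). Adamts14 had 1638, 1689 and 1666 at P1 and 1272, 1072 and 1205 at P4. It fell 1.41-fold, without overlap (-0.50, SE 0.0923, adjusted p 0.00461). Adamts2, the most abundant of the 3 per kb, was at 19244 ± 2223 and 13986 ± 3590 (-0.49, SE 0.177, adjusted p 0.0761).

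Adamts13 (ENSMUSG00000014852, chr2:26973416-27009628), which cuts von Willebrand factor, had 253, 309 and 177 in P1 untreated and 70, 40 and 42 in P4 untreated libraries. This was the steepest change of any of the 40 between untreated groups, a 4.82-fold fall (log2 difference -2.27, SE 0.351, adjusted p from limma 0.00181). The proteoglycan-cleaving Adamts5 and Adamts15 rose. Adamts5 (ENSMUSG00000022894, chr16:85856173-85901828), a main aggrecanase, had 424, 607 and 517 at P1 and 749, 1059 and 1135 at P4 (0.92, SE 0.190, adjusted p 0.00771). Adamts15 (ENSMUSG00000033453, chr9:30899155-30922452), a versicanase, had 2792, 2838 and 1748 at P1 and 4517, 4008 and 5412 at P4 (0.94, SE 0.260, adjusted p 0.0282). Neither overlapped between the ages.

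Adamts1, which lies 53.1 kb from Adamts5 on the same strand, had 2518, 1952 and 1495 in P1 untreated and 1035, 838 and 1352 in P4 untreated libraries (log2 difference -0.88, SE 0.294, adjusted p 0.0563). Its difference was thus opposite in sign to that of its neighbour. Adamts8 lies 20.1 kb from Adamts15 on the other strand, and it too differed in sign, at 50, 106 and 44 against 3, 41 and 19 (-2.06, SE 0.879, adjusted p 0.121). The third neighbouring pair, Adamts13 and Adamtsl2, 69.8 kb apart on the same strand, had the same sign (-2.27 and -1.36), and of these only Adamts13 was called.

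Of the membrane-type Mmps, Mmp16 fell and Mmp15 rose. Mmp16 had 2124, 2038 and 1936 in P1 untreated and 944, 1039 and 918 in P4 untreated libraries, a 2.10-fold fall with tight groups (log2 difference -1.07, SE 0.192, adjusted p from limma 0.00380). Mmp15 (ENSMUSG00000031790, chr8:95352268-95375080) had 1904, 1793 and 1975 at P1 and 2596, 2245 and 2741 at P4 (0.41, SE 0.108, adjusted p 0.0218). Mmp28, known as epilysin (ENSMUSG00000020682, chr11:83440768-83463071), had 66, 63 and 83 at P1 and 129, 199 and 236 at P4 (1.37, SE 0.316, adjusted p 0.0127). Neither Mmp15 nor Mmp28 overlapped between the ages, and 12.0% of the exon bases of Mmp28 are shared with another gene. Adamts16 fell from 1770 ± 202 to 999 ± 379 (-0.89, SE 0.274, adjusted p 0.0434).

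Timp2 fell from 24253 ± 2925 to 18633 ± 1269 between the untreated groups (log2 difference -0.38, SE 0.114, adjusted p from limma 0.0406), a call that was lost with the replicate number as a block (adjusted p 0.0639). The other Timps were not called: Timp1 had a log2 difference of -0.43 (adjusted p 0.373), Timp3 of -0.55 (adjusted p 0.283) and Timp4 of 0.53 (adjusted p 0.676). Leaving out 1 library ended 5 of the 10 calls. Adamts16 lost its call without any 1 P1 untreated library, P4 untreated replicate 2 or replicate 3 (adjusted p 0.0768 to 0.131), and Timp2 without P1 untreated replicate 1 or 3 or any 1 P4 untreated library (0.0540 to 0.140). Mmp15 lost it without P1 untreated replicate 1 or 2 or P4 untreated replicate 1 or 3 (0.0567 to 0.0837), Adamts15 without P1 untreated replicate 3 or P4 untreated replicate 1 or 3 (0.0641 to 0.0979), and Mmp28 without P4 untreated replicate 3 (0.0543). With log2 Xist as a covariate the same 5 genes lost their calls (adjusted p 0.0564 to 0.188), and Timp2 also did under quantile normalization (0.0755). With eBayes without trend, Adamts15, Adamts16 and Timp2 lost theirs (0.0533, 0.0712 and 0.0777). With no filter on low values, Adamts16 and Timp2 did (0.0590 and 0.0556). Adamts3, Adamts5, Adamts13, Adamts14 and Mmp16 passed each time.

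**Figure D5:**
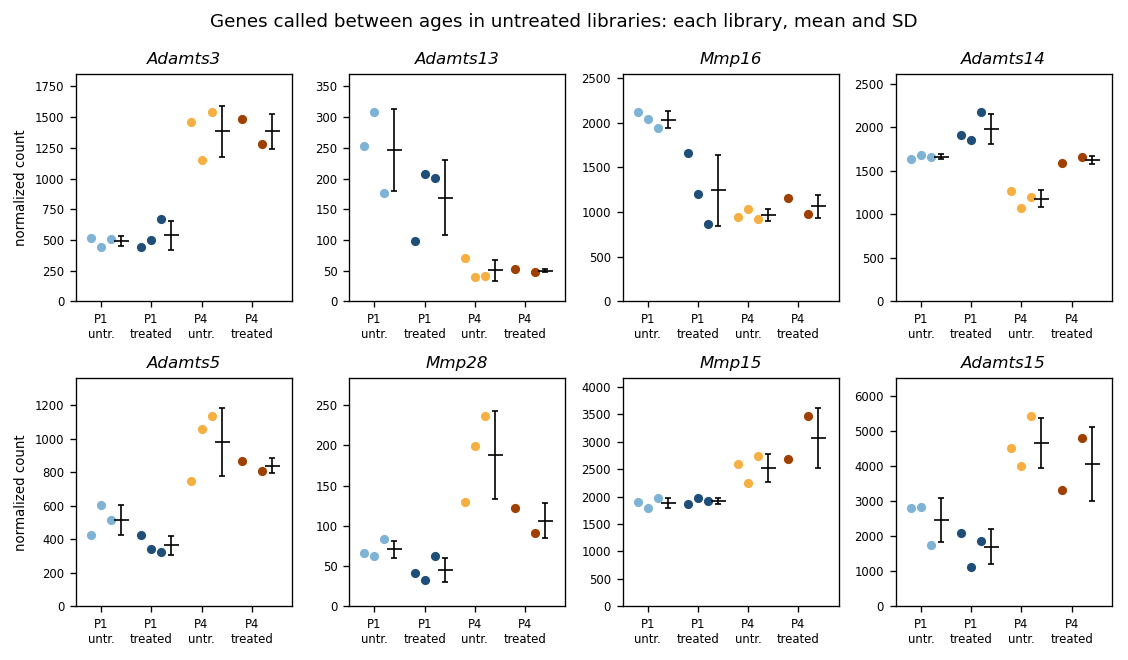
Normalized counts of 8 genes called between P1 and P4 untreated libraries, with each library as a point and the group mean and SD as a bar, on axes that start at 0. Adamts3, Adamts5, Adamts15, Mmp15 and Mmp28 are higher and Adamts13, Mmp16 and Adamts14 lower in P4 than in P1 untreated libraries.

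In treated libraries, 5 members rose from P1 to P4 (12.5% of the 40, against 5.42% of all genes) and 2 fell (5%, against 5.63%). Groups did not overlap for 16 members (40%), against 43.1% of all genes. The members that rose were Adamts3 (log2 difference 1.38, SE 0.188, adjusted p from limma 0.00309), Adamts5 (1.22, adjusted p 0.00767), Mmp15 (0.67, adjusted p 0.00898), Adamts15 (1.28, adjusted p 0.0212) and Mmp28 (1.26, adjusted p 0.0449). Those that fell were Adamts13 (-1.66, adjusted p 0.0248) and Adamts16 (-1.13, adjusted p 0.0400). Adamts3 had 442, 501 and 668 in P1 treated and 1484 and 1283 in P4 treated libraries, and Adamts5 had 427, 341 and 323 against 871 and 810. Mmp16, at 1242 ± 399 (n = 3) and 1066 ± 129 (n = 2), was not called (-0.18, SE 0.215, adjusted p 0.644). Without P4 treated replicate 3 only Adamts3 was called, and without P4 treated replicate 1 only Adamts3 and Mmp15 were. Without P1 treated replicate 1 the calls of Adamts16 and Mmp28 were lost (adjusted p 0.0935 and 0.0930), without replicate 2 those of Adamts13 and Mmp28 (0.0564 and 0.0915), and without replicate 3 that of Adamts13 (0.0625). With the level of Xist as a covariate, which runs with age in these libraries, 0 were called.

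Among genes that act with these proteases, 6 lists were counted. In the treatment comparison at P1, where limma called 0.353% of all genes, 1 of 78 listed genes that were tested was called. It was Cd44, a hyaluronan receptor that holds Mmps at the cell surface, at 3361 ± 593 in P1 untreated and 7020 ± 373 in P1 treated libraries (log2 difference 1.08, SE 0.136, adjusted p from limma 0.0136). Its P4 level was 4678 ± 713 (n = 3) and 8802 ± 349 (n = 2), a log2 difference of 0.92 (adjusted p 0.136), and no listed gene was called there or in the interaction.

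Between untreated ages, 9.38% of all genes rose and 10.5% fell, and a single call in a list is near those shares. Of 17 fibrillin microfibril genes, 5 fell and 0 rose, among them Fbn2 (log2 difference -0.68, adjusted p 0.00387) and Mfap2 (-0.63, adjusted p 0.00423), which encode microfibril components. Of 18 genes that activate or anchor metalloproteases, 5 fell and 1 rose. Pcolce2, an enhancer of procollagen processing, was at -0.51 (adjusted p 0.00348), and the syndecan Sdc4 at -0.91 (adjusted p 0.00534). Of 10 Adamts substrates and link proteins, 3 fell, among them the matricellular Thbs2 (-1.57, adjusted p 4.41e-04) and neurocan, Ncan (-1.31, adjusted p 0.00404), and 1 rose. Of 12 Adam genes, which encode membrane sheddases, 2 rose, namely Adam8 (3.28, adjusted p 4.41e-04) and Adam17 (0.81, adjusted p 0.00646), and 1 fell. Of 13 other matrix proteases, 2 rose, namely Prss23 (1.24, adjusted p 3.95e-04) and Dpp4 (1.15, adjusted p 0.00217), and 2 fell, and of 8 plasminogen system genes 1 fell, namely Anxa2 (-0.64, adjusted p 0.00406).

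Between treated ages fewer of all genes were called (5.42% higher and 5.63% lower), and so were fewer listed genes. Of the genes that activate or anchor metalloproteases 2 fell, namely Pcolce2 (log2 difference -0.77, adjusted p 0.00257) and Cd63 (-0.53, adjusted p 0.0185), and of the microfibril genes 2 fell, namely Mfap2 (-0.69, adjusted p 0.00966) and Fbn2 (-0.51, adjusted p 0.0396). Thbs2 was the 1 called substrate gene (-1.29, adjusted p 0.00487). Adam8 (1.98, adjusted p 0.0170), Adam17 (0.82, adjusted p 0.0185), Prss23 (0.89, adjusted p 0.00791) and Dpp4 (0.91, adjusted p 0.0207) rose, and 0 plasminogen system genes were called.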

How the data were processed

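RNA-seq of 11 mouse cochlear libraries (3 P1 treated, 3 P1 untreated, 2 P4 treated, 3 P4 untreated) was used, each from a separate pup and grouped by the labels. The authors deposited normalized counts (a score), given as whole numbers. Per the labels and methods, the build was mm10, STAR 2.5.2b aligned the reads, featureCounts counts served quality control, and Sailfish estimates per transcript, summed to genes with tximport, were the quantification tested with DESeq2. The sources do not say it of the deposited table by name. Of 27755 entries, 1 repeated another's ID and was dropped, and 626 had no symbol.

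With limma 3.58.1 in R 4.3.3, log2(normalized count + 1) was fitted (a mean per group, spread shared by all libraries with 7 residual degrees of freedom, eBayes with trend), over 18400 genes with a mean of at least 10. A fold change is on that scale and understates that of low genes. Calls needed a fold change over 1.25 with a Benjamini-Hochberg adjusted p under 0.05. The fit was tested on simulated data. Python 3.11.15 was used for tables. Exons came from GENCODE M21 on the mm10 build, which matched all 40 genes.

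Named in full were up to 8 called members per comparison by smallest adjusted p (filled to 4 by unadjusted p), all Timps, and the 3 most abundant Mmp, Adamts and Adamtsl genes. The members and lists were chosen with earlier results of these data known, so no count is independent evidence. Alternatives changed the pseudocount, filter, trend, scaling, threshold, libraries, an Xist covariate and a replicate block. The contrast averaged over ages was chosen after seeing the data. Same-numbered libraries deviated together between the untreated ages (r of deviations 0.115 to 0.136 in 3 pairs), and elsewhere not (-0.0605 to 0.0260). The labels state no pairing, the main fit was unpaired, and the replicate block was an alternative only. Within groups, r over genes was 0.958 to 0.973, and 0 pairs of libraries were identical. Depth before normalization was not analysed here.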

Additional observations from a re-analysis of the deposited data

How the results depend on the processing

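With 1 library left out in turn, the members called numbered 0 to 9 for treatment at P1, 0 to 0 at P4 and for the interaction, 5 to 9 between untreated ages (10 with all), 1 to 7 between treated ages (7 with all) and 0 to 9 for treatment averaged over the ages (2 with all). The 9 arose without P1 treated replicate 1. With log2 Xist as a covariate, 5 members were called between untreated ages, 0 between treated ages and 1 for averaged treatment. Fitting only the groups compared gave 3 between treated ages. For averaged treatment, no filter on low values gave 1, eBayes without trend 0 and an adjusted p under 0.1 gave 4. With a replicate block, 9 members were called between untreated ages, where Timp2 alone was lost, 4 between treated ages, 1 for averaged treatment and 0 for treatment at either age. Whether the numbers pair the samples is not stated in the labels, and the main fit was unpaired. Outside these, counts stayed within 1.5 times the value given.

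Over 33 pairs of a named gene and a comparison, 548 alternative values were computed. Of these, 454 stayed on the same side of the threshold, 84 fell short of it, 10 newly passed it and 0 changed sign. The cause was not tested, except that fewer libraries or groups leave fewer degrees of freedom. The median of all genes moved by less than 0.1 (log2) under quantile normalization. The P4 treated group of 2 libraries limits every comparison that uses it.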
